A study of Rattus norvegicus with 12 samples.

Results

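Aged rats of 22 months were compared with young rats of 3 months in one arm of a study of medial prefrontal cortex, the arm in which the animals had worked in an operant test of attention. The members were chosen from the labels: 6 of the 12 RNA-seq libraries carry the label performing, 3 of them young (YP1, YP2 and YP3) and 3 of them aged (AP1, AP2 and AP3). All were from Wistar rats, an outbred strain, and the labels name no transgene, drug or other agent in any group. The 6 remaining libraries came from nonperforming rats of the same ages (YN1 to YN3 young, AN1 to AN3 aged), which shared the surroundings of the test without working in it. Replicate numbers only name libraries, and since nothing says that each library came from a separate animal, p-values measure the spread between these libraries. Of 15939 genes in the table, 13496 reached 10 in 3 or more of the 12 libraries and were tested. A gene low in the young libraries can meet this limit through the aged ones alone, which favours a rise. Values are read counts divided by a size factor per library, and changes are aged minus young on the log2(value + 1) scale, which understates the change of low genes.

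The medial prefrontal cortex holds rules and sustains attention, with cholinergic input from the basal forebrain among its modulators. Its resident immune cells are microglia, which survey the tissue, clear debris, and with astrocytes make complement proteins that tag material for removal. MHC class I presents peptides cut in the cytosol and sits on most cells, whereas MHC class II presents peptides taken up by antigen-presenting cells and is low in resting microglia. Interferons act through STAT and IRF factors, which bind short DNA elements called ISRE and GAS near the genes they induce.

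Some libraries stood apart, and results that rest on them are given with and without them. Library totals ran from 22189094 reads in AP1 to 42205582 in YP3. Titles of YN1 and YP1 begin with VP and those of all other libraries with U, a prefix that the labels do not explain. Among performing libraries only YP1 has VP, so the prefix lies wholly in the young group. What it stands for was not tested beyond a fit with the prefix as a covariate. The mean log2 level of 15 olfactory bulb genes was 9.26 in YP2, 9.25 in AP1, 9.74 in AP3, 7.91 in AP2, 7.20 in YP3 and 6.63 in YP1, against 6.42 to 6.84 in the 6 nonperforming libraries. AP2 had a summed level of 9 MHC class II genes of 67331, against 323 to 4540.5 in the other 11 libraries. YN3 had the lowest mitochondrially encoded share of reads, 10.8%, and a summed choroid plexus level of 40553, against 1743 to 3269 in the other libraries. In performing rats that share was 21.0 ± 2.2% in the young and 23.3 ± 3.7% in the aged (SD, n = 3; two-sided exact permutation p = 0.5, where 0.1 is the smallest that 20 assignments allow). Slc17a7, the vesicular glutamate transporter of cortical excitatory neurons, stood at 38519.9, 28485 and 33632 in YP1, YP2 and YP3 and at 26661, 29603 and 21896 in AP1, AP2 and AP3. It was high in all of them but lowest in YP2, AP1 and AP3, the libraries with the highest bulb level. A single gene cannot show which region was sampled.

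No gene passed an adjusted p under 0.05 (0.0% of 13496), and none passed with edgeR or DESeq2 on the recovered reads. At an unadjusted limma p under 0.05 there were 466 genes (3.45%), 281 higher in aged rats (2.08%) and 185 lower (1.37%). With quantile normalization that split turned to 181 higher and 339 lower. edgeR gave 519 genes and DESeq2 660 at the same unadjusted limit. The 3 aged libraries all exceeded the 3 young ones for 1165 genes (8.63%) and all fell short of them for 991 (7.34%), and 51.3% of genes had a change above 0. The smallest adjusted p was 0.89 with limma, 0.91 with edgeR and 0.17 with DESeq2. Every gene named below is therefore described by its values. Its error after ± is the standard error of the limma fit unless SD is written, and its adjusted p in that fit was 0.89 or more. For the difference of the age effect between performing and nonperforming rats, again no gene passed (0.0%), with 139 at an unadjusted p under 0.05 by limma, 172 by edgeR and 219 by DESeq2.

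Antigen presentation, complement, interferon response and microglial genes come first, being mostly higher in aged performing rats. Some promoters are shown before the values, since interferon factors bind DNA letters that some of these genes share. RefSeq promoters of build GRCr8, 250 bases before to 50 bases after each start, were searched for the ISRE core GAAANNGAA on both strands and for the GAS element TTCNNNGAA, which reads the same on both. The reads were placed on another build, so these positions locate the sequence only. ISRE letters stood in 27 of 44 interferon response promoters (61.4%) and in 10 of 28 MHC class I promoters (35.7%), against 9.71% of all 33469 promoters. They were in 0 of 8 MHC class II and 0 of 15 complement promoters. GAS letters stood in 13 of the 44 interferon response promoters (29.5%), in 3 of the 28 MHC class I promoters (10.7%), in 2 of the 15 complement promoters (13.3%) and in 0 of 8 MHC class II promoters, against 8.87% of all. The 2 motifs can overlap. A match is a description and not a shown site, and a missing match concerns only these letters and windows. Most members with a match had groups that overlapped. With ISRE letters only B2m, RT1-N3, Ifih1, Gbp5 and Dtx3l did not overlap, and with GAS letters only Irf1 and Irf8. The windows shown therefore do not tie the letters to a rise. The 6 windows of 60 bases shown are printed, 5′ to 3′ on the strand of the gene, from members whose aged libraries all exceeded the young ones, with the matched letters in capitals; the 6 were picked after the values were seen.
B2m (chr3:129549154-129549213, plus strand, ISRE): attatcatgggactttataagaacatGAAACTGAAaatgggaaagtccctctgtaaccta
RT1-N3 (chr20:2666257-2666316, plus strand, ISRE): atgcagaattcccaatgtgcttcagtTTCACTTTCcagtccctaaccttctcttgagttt
Ifih1 (chr3:67683994-67684053, minus strand, ISRE): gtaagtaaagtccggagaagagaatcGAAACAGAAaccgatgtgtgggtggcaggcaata
Gbp5 (chr2:233910918-233910977, plus strand, ISRE): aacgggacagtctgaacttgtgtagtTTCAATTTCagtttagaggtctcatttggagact
Irf1 (chr10:38417767-38417826, plus strand, GAS): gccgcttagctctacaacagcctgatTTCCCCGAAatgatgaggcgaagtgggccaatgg
Irf8 (chr19:65699097-65699156, plus strand, GAS): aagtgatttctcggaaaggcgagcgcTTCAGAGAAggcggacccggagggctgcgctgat
The capitals begin at -150 in B2m, -206 in RT1-N3, -59 in Ifih1, -55 in Gbp5, -142 in Irf1 and -161 in Irf8, counted from the start site. In RT1-N3 a further match at -212 overlaps the one shown, and the Irf8 window holds a further GAS match at -180, left in lower case.

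MHC class I genes were mostly higher in aged performing rats. Of 32 tested members, 27 had a change above 0 and the median was 0.42, against 0.01 over all genes. Groups did not overlap for 9 higher members and 1 lower, beside 8.63% and 7.34% of all genes. B2m, the light chain that every class I molecule needs, stood at 9317, 13961 and 12002 in YP1, YP2 and YP3 and at 17007, 23906 and 15947 in AP1, AP2 and AP3. All 3 aged libraries were above all 3 young ones, AP2 highest. The difference was 0.68 ± 0.26 on the log2 scale (SE; limma, adjusted p = 0.89), 0.51 without AP2 and 0.67 with the bulb score as a covariate. In nonperforming rats it was 0.16 ± 0.26.

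The reads of the heavy chains are uncertain, since RT1 genes are near-identical and differ between rat haplotypes. RT1-CE3 stood at 16.8, 4.73 and 21 in YP1, YP2 and YP3 and at 47.5, 97.3 and 55.3 in AP1, AP2 and AP3, a difference of 2.30 ± 0.75. RT1-N2 stood at 0, 49.7 and 12.1 in YP1, YP2 and YP3 and at 57.8, 164 and 69.2 in AP1, AP2 and AP3, a difference of 3.33 ± 1.12. In both genes the aged libraries were above the young ones, with 1 young library of RT1-N2 at 0. RT1-M6-2 ran the other way, at 84.7, 89.9 and 57.9 in YP1, YP2 and YP3 and at 11.6, 14.2 and 6.92 in AP1, AP2 and AP3. All aged libraries were below all young ones, and the difference of -2.75 ± 0.64 was the lowest in the list. Among the genes that supply peptides, 10 of 12 had a change above 0, with a median of 0.30, or 0.14 without AP2 with 8 of 12 above 0. Nlrc5, the transactivator of class I genes, stood at 26.6, 29.6 and 11.5 in YP1, YP2 and YP3 and at 34.7, 184 and 65.2 in AP1, AP2 and AP3, with AP2 far above the others and AP1 just above the young libraries. Its difference was 1.79 ± 0.73, and 1.15 without AP2. Psmb9, a subunit of the immunoproteasome, stood at 76.9, 116 and 129 in YP1, YP2 and YP3 and at 137, 342 and 178 in AP1, AP2 and AP3, without overlap, a difference of 0.95 ± 0.50. Psmb8, its partner subunit, stood at 27.6, 52 and 36.3 in the young libraries and 51.4, 113 and 63.2 in the aged ones, with overlap. Erap1, a peptide-trimming enzyme, differed by 0.40 ± 0.19. At the other end, Calr, a general chaperone of the endoplasmic reticulum, stood at 9685, 8111 and 13972 in the young libraries and 7648, 8799 and 7656 in the aged ones and differed by -0.36 ± 0.28. Without AP2 the class I median was 0.28 with 26 of 32 above 0. Without YP2 it was 0.68, without YP2, AP1 and AP3 0.86, with the bulb score as a covariate 0.49, and in nonperforming rats -0.01. The mean log2 level of the list was 7.61, 7.54 and 8.56 in YN1, YN2 and YN3. AN1, AN2 and AN3 stood at 7.46, 7.71 and 8.29, so the nonperforming median depends on YN3, the highest library.

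MHC class II genes had the largest differences, and 1 library held most of them. Of 9 tested members, 8 had a change above 0, with a median of 3.10, and groups did not overlap for 5, all higher (8.63% of all genes). Cd74, the invariant chain that guides class II molecules through the cell, stood at 195, 480.2 and 247 in YP1, YP2 and YP3 and at 818, 38921 and 877 in AP1, AP2 and AP3. AP2 was far above every other library, while AP1 and AP3 were above all young ones by less. The difference was 3.41 ± 1.45 on the log2 scale (SE; limma, adjusted p = 0.89), and 1.57 without AP2. RT1-Da, a class II alpha chain, stood at 40.4, 122 and 72.6 in YP1, YP2 and YP3 and at 216, 12668 and 238 in AP1, AP2 and AP3, the same order of libraries. RT1-Ba, another alpha chain, stood at 24.6, 110.0 and 33.7 in YP1, YP2 and YP3 and at 86, 6895 and 107 in AP1, AP2 and AP3, and here AP1 and AP3 lay within the young range. RT1-Db2, a beta chain close in sequence to RT1-Db1, stood at 0, 0 and 1.91 in the young libraries and 11.6, 313 and 3.95 in the aged ones, with 2 young libraries at 0. Ciita, the master transactivator of class II genes, stood at 6.9, 3.55 and 4.46 in YP1, YP2 and YP3 and at 11.6, 244 and 12.8 in AP1, AP2 and AP3. AP1 and AP3 were again above the young libraries, and the difference was 2.59 ± 1.04, 1.18 without AP2. RT1-DOa, a chain of the loading regulator DO, differed by 1.82 ± 1.11, and Ifi30, a lysosomal thiol reductase that readies antigens, by 0.72 ± 0.44. RT1-DOb, the partner chain of RT1-DOa, stood at 20.7, 30.8 and 24.8 in the young libraries and 2.57, 106 and 2.96 in the aged ones, so that 2 aged libraries were below and AP2 above the young ones. Without AP2 the class II median was 1.07, with 8 of 9 above 0. Without YP2, AP1 and AP3 it was 7.46, a fit in which AP2 is the lone aged performing library. In nonperforming rats it was 0.66. As the tissue was sequenced in bulk, fewer or more cells of a type and less or more RNA per cell cannot be told apart here or in any group below.

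**Figure D1:**
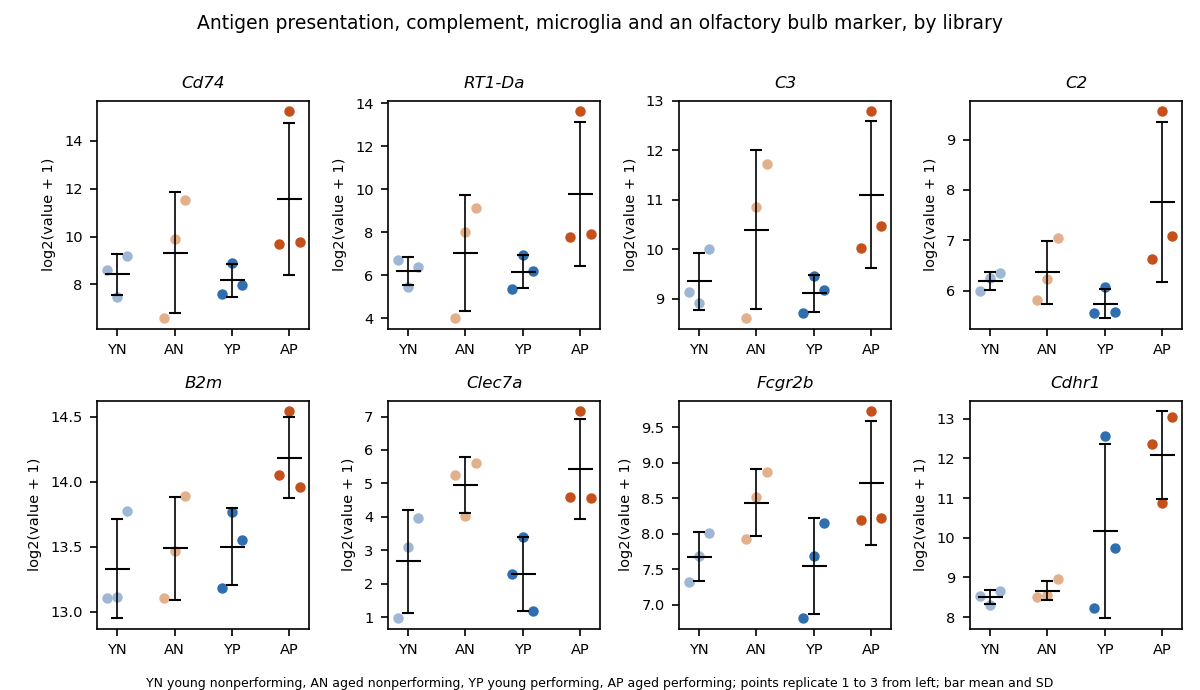
Values of 8 genes in each library as log2(value + 1), on an axis that differs between panels, with the 4 groups along the horizontal axis, points for the 3 replicates and bars for the mean and SD. AP2 (middle aged performing point) stands at 38921 for Cd74 before the log, against 818 and 877 in AP1 and AP3, while Cdhr1 is high in YP2, AP1 and AP3.

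Complement genes of the early cascade were higher in aged performing rats, again led by AP2. Of 28 tested members, 24 had a change above 0 (median 0.45), with 5 not overlapping and higher and 1 not overlapping and lower, beside 8.63% and 7.34% of all genes. C2, which with C4 forms the C3 convertase, stood at 46.3, 66.2 and 47.1 in YP1, YP2 and YP3 and at 97.6, 757 and 134 in AP1, AP2 and AP3. The aged libraries were all above the young ones and the difference was 2.02 ± 0.62 on the log2 scale (SE; limma, adjusted p = 0.89), 1.11 without AP2. C3, the protein on which all complement routes converge, stood at 417, 701 and 574 in YP1, YP2 and YP3 and at 1047, 7089.8 and 1419 in AP1, AP2 and AP3. All aged libraries exceeded all young ones, AP2 by most, with a difference of 1.99 ± 0.79 and 1.14 without AP2. C4b stood at 14.8, 35.5 and 40.1 in the young libraries and 32.1, 435 and 77.1 in the aged ones, and AP1 lay within the young range. C7, a part of the membrane attack complex, stood at 6.9, 36.7 and 34.4 in YP1, YP2 and YP3 and at 70.6, 40.3 and 83 in AP1, AP2 and AP3, with AP2 the lowest aged library. Its difference was 1.52 ± 0.58, and 0.76 with the bulb score as a covariate. Cfb, the protease of the alternative route, differed by -0.26 ± 0.45, the lowest of the group. The receptors were higher in 5 of 5, with a median of 0.72, but in 3 of 5 without AP2, with 0.36. Itgb2, the beta chain of complement receptor 3, stood at 216, 277 and 295 in the young libraries and 322, 716 and 345 in the aged ones, with no overlap. C5ar2 differed by 0.84 ± 0.44, Itgax by 1.04 ± 0.76 and C3ar1, the receptor of the C3a fragment, by 0.26 ± 0.41. Regulators stood closer to 0, with a median of 0.15. Cd59, which blocks the membrane attack complex, stood at 3663, 3186 and 3170.5 in the young libraries and 3933, 3750.1 and 4015 in the aged ones, with no overlap but a difference of only 0.23 ± 0.12. Serping1, the C1 inhibitor, differed by 1.27 ± 0.84 and Cd55, which speeds the decay of convertases, by -0.18 ± 0.32. The median of all 28 was 0.27 without AP2, 0.74 without YP2, AP1 and AP3, 0.26 with the bulb score as a covariate and 0.20 in nonperforming rats.

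Interferon response genes were mostly higher as well. Of 60 tested, 52 had a change above 0, with a median of 0.43, 3 at an unadjusted p under 0.05 (all higher, beside 2.08% of all genes) and 7 not overlapping and higher (8.63%). Ifih1, the cytosolic sensor MDA5 of long double-stranded RNA, stood at 101, 118 and 94.2 in YP1, YP2 and YP3 and at 136, 219 and 166 in AP1, AP2 and AP3. Its aged libraries were all above its young ones, with a difference of 0.71 ± 0.27 on the log2 scale (SE; limma, adjusted p = 0.89), 0.52 without AP2 and 0.70 with the bulb score as a covariate. Dtx3l, a ubiquitin ligase of the interferon response, stood at 152, 213 and 206 in YP1, YP2 and YP3 and at 240.1, 369 and 285 in AP1, AP2 and AP3, without overlap. Gbp5, a guanylate-binding GTPase, stood at 68, 116 and 97.4 in YP1, YP2 and YP3 and at 127, 213 and 134 in AP1, AP2 and AP3, also without overlap, and differed by 0.74 ± 0.36. Zbp1, a sensor of Z-form nucleic acids, stood at 5.91, 7.1 and 1.91 in the young libraries and 14.1, 113 and 12.8 in the aged ones, with AP2 far above the rest. Ifit1, an effector that binds viral RNA, ran lowest at -1.54 ± 2.66, but at 0.06 without YP3 and 3.78 without YP2, AP1 and AP3. Among signalling genes, Irf1 stood at 207, 257 and 213 in YP1, YP2 and YP3 and at 276, 459 and 259.8 in AP1, AP2 and AP3, with AP1 and AP3 just above the young range, and differed by 0.51 ± 0.22. Irf8, a factor of microglia and other myeloid cells, stood at 301, 303 and 301 in YP1, YP2 and YP3 and at 366, 1044 and 342 in AP1, AP2 and AP3. The young libraries were nearly equal, and all aged ones were above them, AP2 by most. Irf9 differed by 0.40 ± 0.23, Ifngr2, a chain of the interferon gamma receptor, by 0.16 ± 0.15, and Ifnar1, a chain of the interferon alpha receptor, by -0.11 ± 0.14. The list median was 0.26 without AP2 with 46 of 60 above 0, 0.20 without YP1, 0.71 without YP2, AP1 and AP3, 0.25 with the bulb score as a covariate and 0.18 in nonperforming rats.

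Microglial genes were higher in aged performing rats in most members. Of 50 tested, 44 had a change above 0 (median 0.57), 9 were at an unadjusted p under 0.05, all higher, and 14 did not overlap, all higher, beside 2.08% and 8.63% of all genes. The list median was 0.25 without AP2, 0.99 without YP2, AP1 and AP3, 0.52 with the bulb score as a covariate and 0.14 in nonperforming rats. The mean log2 level of the list was 7.84, 7.84 and 8.29 in YN1, YN2 and YN3 and 7.98, 8.11 and 8.76 in AN1, AN2 and AN3. All 22 genes of homeostatic microglia had a change above 0, with a median of 0.55, or 0.18 without AP2 with 18 of 22 above 0, and 0.31 without YP1. Sall1, a transcription factor that keeps microglial identity, stood at 1193, 2114 and 1079 in YP1, YP2 and YP3 and at 2537, 2223 and 3032 in AP1, AP2 and AP3. YP2 came near AP2, the lowest aged library, and the difference was 0.88 ± 0.27 on the log2 scale (SE; limma, adjusted p = 0.89), 0.49 with the bulb score as a covariate. Fcgr2b, the inhibitory Fc receptor, stood at 111, 205 and 283 in YP1, YP2 and YP3 and at 293, 847 and 296 in AP1, AP2 and AP3, with AP1 and AP3 just above the young range. Ptprc, the leukocyte antigen CD45, stood at 94.6, 121 and 134 in the young libraries and 137, 441 and 155 in the aged ones, and Gpr34, a microglial receptor, at 488, 511 and 651 in the young libraries and 643, 894 and 657 in the aged ones. Aif1, the microglial protein Iba1, stood at 619.8, 711 and 968 in YP1, YP2 and YP3 and at 724, 2362 and 778 in AP1, AP2 and AP3. AP1 and AP3 lay within the young range, and the difference of 0.55 ± 0.53 was -0.0042 without AP2.

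Genes of reactive and phagocytic microglia had a median of 0.70, or 0.48 without AP2, with 22 of 28 above 0. It was 0.41 with the bulb score as a covariate and 0.07 in nonperforming rats. The mean log2 level of these genes was 7.49, 7.38 and 8.17 in YN1, YN2 and YN3. AN1, AN2 and AN3 stood at 7.72, 7.90 and 8.60, so AN1 and AN2 exceeded YN1 and YN2 but not YN3. Clec7a, the receptor Dectin-1 and a marker of microglia that surround debris, stood at 3.94, 9.46 and 1.27 in YP1, YP2 and YP3 and at 23.1, 142 and 22.7 in AP1, AP2 and AP3. Every aged library was above every young one, with a difference of 3.15 ± 0.92 on the log2 scale (SE; limma, adjusted p = 0.89), 2.29 without AP2 and 2.28 ± 0.92 in nonperforming rats. Ccl6, a chemokine, stood at 10.8, 24.8 and 14.6 in YP1, YP2 and YP3 and at 30.8, 34.4 and 35.6 in AP1, AP2 and AP3, with the aged libraries close together. Ccl3, also a chemokine, stood at low values of 3.94, 8.28 and 4.46 in the young libraries and 18, 9.49 and 15.8 in the aged ones and differed by 1.25 ± 0.50. Cybb, the catalytic subunit of the phagocyte oxidase, stood at 49.3, 82.8 and 65.6 in the young libraries and 75.8, 482 and 143 in the aged ones, with AP1 inside the young range and AP2 highest.

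Markers of other leukocytes were measured beside these groups. Of 37 listed, 18 were tested, and 14 of them had a change above 0, 1 of which did not overlap (Cd4, beside 8.63% of all genes). The median was 0.26, or 7.3e-05 with the bulb score as a covariate, where 9 of 18 were above 0. In nonperforming rats the median was 0.51, and that of the neutrophil and monocyte genes was 1.38. In performing rats the summed level of the 18 was 746 to 1320.0 in the young and 1095 to 4016 in the aged libraries, highest in AP2. In the T, B and NK cell list the sum was 230.4 to 289.8 in the young and 313 to 1847 in the aged libraries, and Cd4 made up most of it in AP2. Cd4, which rat macrophages and microglia carry as well as T cells, stood at 176, 164 and 138 in YP1, YP2 and YP3 and at 235, 1753 and 288 in AP1, AP2 and AP3. Cd3e stood between 5.91 and 10.2 in the 6 libraries, Cd3d at 2.37 or less and at 0 in AP2, Cd79a at 2.37 or less and Ms4a1 at 2.57 or less. Plac8, a gene of monocytes and neutrophils, stood at 31.5, 91.1 and 49.6 in the young libraries and 52.6, 1558 and 96.8 in the aged ones, AP2 alone being high. The neutrophil and monocyte list summed to 215 to 264 in the young and 253 to 1737 in the aged libraries. The macrophages of vessels and meninges summed to 299 to 766 in the young and 432 to 705 in the aged libraries, and AP2, at 432, was the lowest aged library. Mrc1, their mannose receptor, stood at 94.6, 208 and 81.5 in the young libraries and 131, 117 and 166 in the aged ones and Cd163, a haemoglobin scavenger receptor, at 37.4, 82.8 and 23.6 in the young libraries and 71.9, 56.9 and 99.8 in the aged ones. The part of these cells in the class II, complement and microglial values was not tested.

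**Figure D2:**
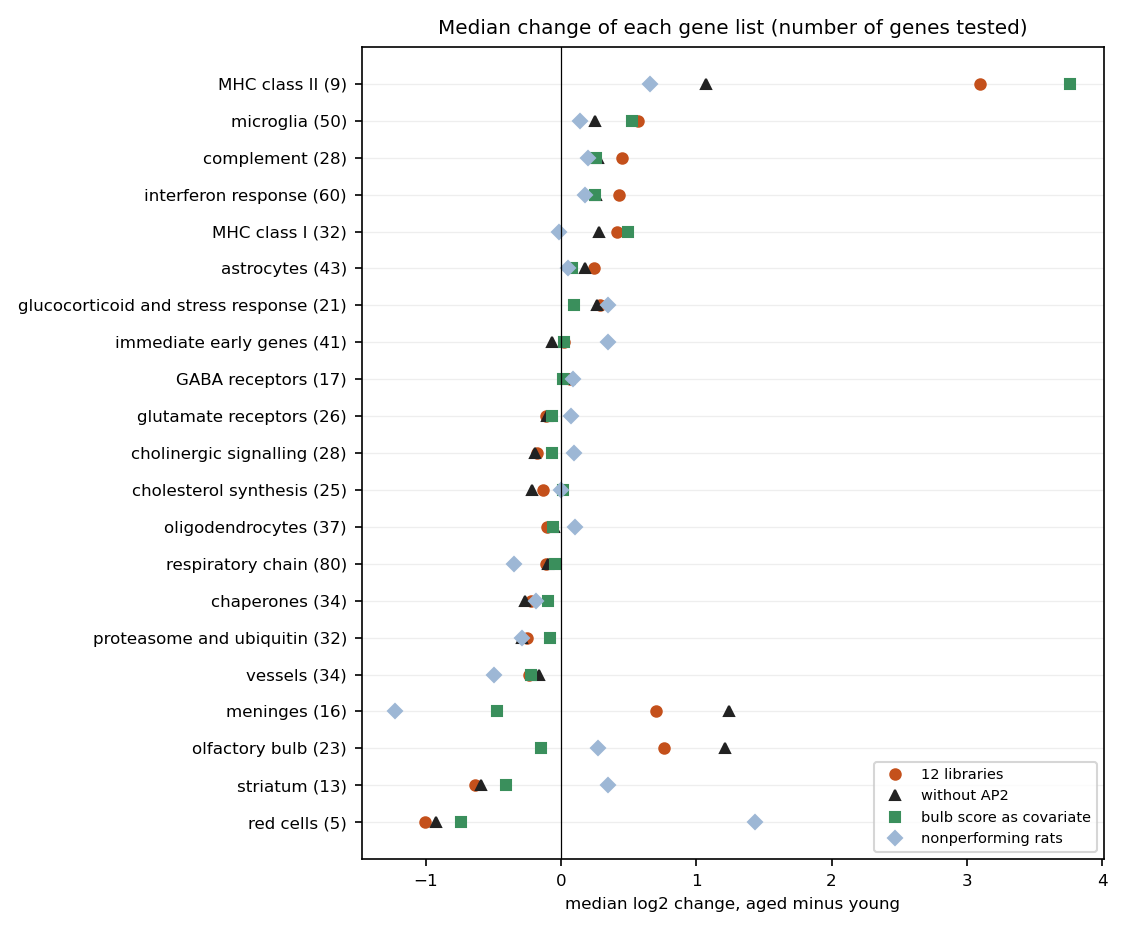
Median log2 change of the tested members of 21 gene lists (rows, number of genes tested in brackets) in performing rats over 12 libraries, without AP2, with the bulb score as a covariate, and in nonperforming rats. MHC class II stands at 3.10 and at 1.07 without AP2, and the olfactory bulb list at 0.76 and at -0.15 with the covariate, which is made from genes of that list.

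Astrocyte genes differed mainly in the reactive list. Genes of astrocyte identity had a median near 0, 0.08 over 17 members, and reactive genes 0.43 over 26, with 19 above 0 and 4 not overlapping, all higher (8.63% of all genes). Gfap, the intermediate filament that reactive astrocytes make, stood at 14598, 22286 and 13941 in YP1, YP2 and YP3 and at 22834, 33048 and 36327 in AP1, AP2 and AP3. All aged libraries exceeded all young ones, YP2 coming close to AP1, and the difference was 0.87 ± 0.49 on the log2 scale (SE; limma, adjusted p = 0.89), with 0.66 ± 0.49 in nonperforming rats. Cp, the copper oxidase ceruloplasmin, stood at 115, 399 and 236 in YP1, YP2 and YP3 and at 407, 439 and 700.5 in AP1, AP2 and AP3, with YP2 again near AP1, and differed by 1.17 ± 0.46, or 0.53 with the bulb score as a covariate. Stat3, the factor that drives reactive astrocyte genes, stood at 1478, 1672 and 1526 in YP1, YP2 and YP3 and at 1811, 2019 and 2011 in AP1, AP2 and AP3, without overlap. Slc10a6, a steroid sulfate carrier, stood at 29.6, 23.7 and 15.9 in the young libraries and 29.5, 86.6 and 43.5 in the aged ones and Emp1, a membrane protein, at 202, 211 and 321 in the young libraries and 223, 176 and 138 in the aged ones. For 3 identity genes AP1 exceeded every young library. Slc4a4, a bicarbonate carrier, differed by 1.19 ± 0.72, Glul, glutamine synthetase, by 0.33 ± 0.20, and Slc1a3, a glutamate transporter, by 0.35 ± 0.23. The reactive median was 0.24 without YP1, 0.24 without AP3, 0.11 with the bulb score as a covariate and 0.11 in nonperforming rats.

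Genes for protein quality control and for respiration ran slightly lower in aged performing rats. All 32 tested genes of the proteasome and ubiquitin list had a change below 0, with a median of -0.25 and 4 not overlapping and lower, beside 7.34% of all genes. None was at an unadjusted p under 0.05. Psmb5, the chymotrypsin-like subunit of the core, stood at 2184, 1972 and 2727 in YP1, YP2 and YP3 and at 1764, 1842 and 1822 in AP1, AP2 and AP3, all aged libraries being below all young ones. Its difference was -0.33 ± 0.23. Psma4, a ring subunit of the core, stood at 2512, 2208 and 2744 in the young libraries and 1900.5, 2220.2 and 2032 in the aged ones, with overlap at YP2. Psmd14, the deubiquitinase of the lid, differed by -0.26 ± 0.18, and Uchl1, a neuronal ubiquitin hydrolase, by -0.47 ± 0.32. Without YP3 the list median was -0.10 and without YP2 -0.37. In nonperforming rats it was -0.29, and with the bulb score as a covariate -0.08. The mean log2 level of the list was 11.33, 11.41 and 12.25 in YN1, YN2 and YN3. AN1, AN2 and AN3 stood at 11.40, 11.53 and 11.26, so YN3 alone was above the aged range.

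Chaperone genes were lower in 28 of 34, with a median of -0.23 and 2 not overlapping and lower (7.34% of all genes). Hsph1, a disaggregating partner of Hsp70, stood at 6749, 4815 and 8019 in YP1, YP2 and YP3 and at 4266, 5483 and 3927 in AP1, AP2 and AP3. YP2 was within the aged range, and the difference was -0.50 ± 0.22, or -0.20 with the bulb score as a covariate. Chordc1, a partner of Hsp90, differed by -0.29 ± 0.17 and Ppid, a cyclophilin partner of Hsp90, by -0.28 ± 0.17. Hspb8, a small heat shock protein of chaperone-assisted autophagy, was at the opposite end at 0.32 ± 0.19. The list median was -0.10 without YP3, -0.34 without YP2, -0.10 with the bulb score as a covariate and -0.18 in nonperforming rats. The mean log2 level of the list was 11.17, 11.26 and 11.74 in YN1, YN2 and YN3. AN1, AN2 and AN3 stood at 11.06, 11.52 and 11.15, so again YN3 alone was above the aged range.

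Nuclear genes of respiratory complex I were below 0 in 32 of 32 members, with a median of -0.13 and 8 not overlapping and lower (7.34% of all genes). Ndufv1, the subunit that takes electrons from NADH, stood at 5075, 4563 and 6268 in YP1, YP2 and YP3 and at 4191, 4271 and 4236 in AP1, AP2 and AP3. The aged libraries were nearly equal and all below the young ones, and the difference was -0.31 ± 0.27. Ndufs3 stood at 3131, 2505 and 3668 in YP1, YP2 and YP3 and at 2455, 2455 and 2498 in AP1, AP2 and AP3, in the same order, with AP3 close to YP2. Ndufa9 differed by -0.18 ± 0.16 and Ndufb5 by -0.22 ± 0.24. In complexes II to IV, 19 of 22 were below 0, among them Uqcrc2, a core protein of complex III, at 7323, 6827 and 7778 in the young libraries and 6766, 6639 and 5769 in the aged ones, and Cyc1, cytochrome c1, at 4749, 4174 and 4789 in the young libraries and 3945, 3901 and 4108 in the aged ones, both without overlap. In the ATP synthase list, 11 of 13 were below 0, among them Atp5g3, a subunit of the rotor, at 6704, 5824 and 7094 in the young libraries and 5660.4, 5771 and 5811 in the aged ones. The 13 mitochondrially encoded genes ran the other way, with 11 above 0 and a median of 0.15; ATP6 stood at 625552, 751926 and 638623 in YP1, YP2 and YP3 and at 952209, 646986 and 669200.0 in AP1, AP2 and AP3, AP1 alone being above the young range. The complex I median was -0.08 without YP3 and -0.20 without YP2. In nonperforming rats it was -0.36, and with the bulb score as a covariate in performing rats it was -0.05. The mean log2 level of the complex I genes was 11.17, 11.22 and 12.26 in YN1, YN2 and YN3. AN1, AN2 and AN3 stood at 11.24, 11.20 and 11.19, so YN3 alone was above the aged range.

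Endothelial genes were lower in 19 of 20, with a median of -0.39 and 2 not overlapping and lower (7.34% of all genes). The median was -0.25 with the bulb score as a covariate and -0.49 in nonperforming rats. Tie1, a receptor of the vessel wall, stood at 662, 570.1 and 1148 in YP1, YP2 and YP3 and at 532, 512 and 481 in AP1, AP2 and AP3. The aged libraries were all below the young ones, YP3 was the highest, and the difference was -0.57 ± 0.27 on the log2 scale (SE; limma, adjusted p = 0.89). Aplnr, the apelin receptor of growing vessels, stood at 93.6, 80.4 and 204 in YP1, YP2 and YP3 and at 50.1, 48.6 and 73.1 in AP1, AP2 and AP3, also without overlap, a difference of -1.02 ± 0.50. In nonperforming rats its difference was -2.48 ± 0.50. Slco1a2, an organic anion carrier of the blood-brain barrier, stood at 1291, 1818 and 4441 in the young libraries and 1466, 1506 and 1300.2 in the aged ones, and Sox17, a factor of arterial endothelium, at 217, 161 and 337 in the young libraries and 187, 158 and 151 in the aged ones. Mfsd2a, the lipid carrier of the barrier, was at the opposite end at 0.01 ± 0.21. YP3 had the highest summed endothelial level of the performing libraries, 37974, against 17615 to 21057 in the other 5, and without it the median was -0.07. Pericyte and smooth muscle genes had a median of 0.11, which was -0.13 without YP1 and -0.20 with the bulb score as a covariate. Cnn1, calponin of smooth muscle, stood at 5.91, 18.9 and 7.64 in the young libraries and 23.1, 20.2 and 27.7 in the aged ones with no overlap, 0.64 being its difference with the bulb score as a covariate.

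**Figure D3:**
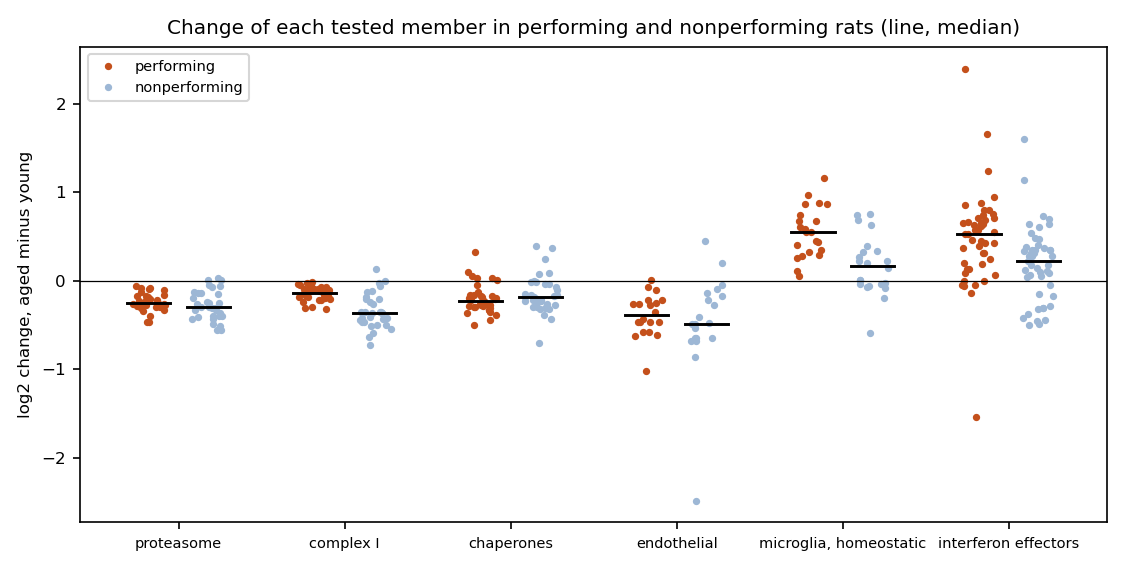
Change of each tested member (points, jittered sideways) of 6 gene groups in performing and nonperforming rats, log2 aged minus young, with the median as a line. The 32 proteasome genes and the 32 complex I genes all lie below 0 in performing rats, and the 22 homeostatic microglial genes all lie above 0.

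Genes of cholinergic signalling were lower more often than higher, with 18 of 28 below 0 and a median of -0.18. Changes ran from -1.44 to 2.87, so the largest was a rise, in a receptor gene. At an unadjusted p under 0.05 there were 4, all lower, beside 1.37% of all genes, while 5 did not overlap and were lower (7.34%) and 1 did not overlap and was higher (8.63%). Chat, the enzyme that makes acetylcholine, stood at 14.8, 21.3 and 33.1 in YP1, YP2 and YP3 and at 5.14, 13 and 5.93 in AP1, AP2 and AP3. These are low values, the aged libraries were all below the young ones, and the difference was -1.44 ± 0.49 on the log2 scale (SE; limma, adjusted p = 0.89). Lypd1, a prototoxin that damps nicotinic receptors, stood at 850.4, 795 and 1244 in the young libraries and 679, 648 and 779 in the aged ones, without overlap. Of 13 receptors 6 had a change above 0 and 7 below. Chrna3, a nicotinic subunit, stood at 30.5, 22.5 and 58.6 in YP1, YP2 and YP3 and at 16.7, 14.2 and 12.8 in AP1, AP2 and AP3 without overlap, and differed by -1.19 ± 0.37. Among performing libraries, YP3 was the highest for Chat, Lypd1 and Chrna3, and it held the highest sum of striatal genes, 20877. Its synthesis, transport, breakdown and modulator genes had a mean log2 level of 8.38, against 7.67 to 7.86 in other performing libraries. The part of striatal RNA in these values was not tested. Chrm3, a muscarinic receptor coupled to Gq, stood at 1319, 1076 and 1402 in YP1, YP2 and YP3 and at 755, 1223 and 813 in AP1, AP2 and AP3, with AP2 inside the young range. Chrm2, the autoreceptor of cholinergic terminals, stood at 122, 158 and 46.5 in the young libraries and 181, 180.3 and 217 in the aged ones, higher and without overlap, a difference of 0.98 ± 0.58.

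Chrm1, Chrna7 and Chrnb2, receptors of cortical neurons, had differences smaller than their errors. Chrm1 stood at 1063, 1632 and 1880.3 in YP1, YP2 and YP3 and at 1307, 1025 and 1428 in AP1, AP2 and AP3, a difference of -0.26 ± 0.35. Chrna7 stood at 311, 266 and 266 in the young libraries and 247, 391 and 265 in the aged ones and Chrnb2 at 871, 643 and 558 in the young libraries and 586, 859.8 and 688 in the aged ones, differences of 0.07 ± 0.49 and 0.05 ± 0.30. In all 3 the groups overlapped. The spread leaves room for changes of either sign. Without YP3 the median of the cholinergic list was -0.11. Its nonperforming median was 0.09, and the median with the bulb score as a covariate was -0.07.

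Glutamate receptor genes had a median of -0.11 over 26 members, with 3 at an unadjusted p under 0.05, all lower (1.37% of all genes), and 4 not overlapping and lower (7.34%). That median was -0.03 without YP1. Grin1, the obligatory NMDA receptor subunit, stood at 11217, 9344 and 12748 in YP1, YP2 and YP3 and at 8570.1, 8684 and 8283 in AP1, AP2 and AP3. The aged libraries were close together below all young ones, and the difference was -0.37 ± 0.15 on the log2 scale (SE; limma, adjusted p = 0.89), -0.24 with the bulb score as a covariate. Grik4, a kainate receptor subunit, stood at 883, 808 and 729 in YP1, YP2 and YP3 and at 665, 614 and 594 in AP1, AP2 and AP3, also without overlap, and differed by -0.37 ± 0.14, against 0.11 ± 0.14 in nonperforming rats. Cacng3, an auxiliary AMPA receptor subunit, stood at 3270.4, 2658 and 3630.1 in the young libraries and 2001, 2871 and 2191 in the aged ones, with AP2 inside the young range. Of 9 AMPA genes 8 were below 0, and Gria1 was the exception at 0.17 ± 0.22. Grin2b and Grin2a, the cortical NMDA receptor partners of Grin1, differed by 0.30 ± 0.19 and 0.59 ± 0.83. Of 37 synapse genes 15 had a change above 0 (median -0.05), 5 not overlapping and lower and 1 higher, beside 7.34% and 8.63% of all genes. In the postsynaptic density 9 of 18 were above 0 and 9 below. Baiap2, a scaffold of dendritic spines, stood at 4379, 3467 and 4509 in YP1, YP2 and YP3 and at 3068, 3327 and 3350.3 in AP1, AP2 and AP3, without overlap, and differed by -0.33 ± 0.12. Dlg3, a scaffold of the postsynaptic density, stood at 4455, 4019 and 5565 in the young libraries and 3527, 3884 and 3855 in the aged ones, and Nrxn2, a presynaptic adhesion protein, at 9388, 8647 and 11477 in the young libraries and 8297, 7435 and 8324 in the aged ones, both without overlap. Though presynaptic, Nrxn2 was counted among the 18 genes of the postsynaptic density list. Bdnf, the activity-dependent growth factor, stood at 495, 329 and 488 in YP1, YP2 and YP3 and at 277, 469.7 and 287 in AP1, AP2 and AP3. AP1 and AP3 were below the young libraries and AP2 within them, a difference of -0.36 ± 0.27.

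Markers of cortical neurons ran both ways. Of 22 interneuron genes 12 had a change above 0 (median 0.01), and of 25 genes of excitatory neurons 10 did (median -0.07), with 3 of 9 in upper layers and 7 of 16 in deep layers. Those of smallest p included Sst, Vip, Lamp5, Calb1, Crym and Slc17a7, each lowest in the 3 libraries richest in bulb genes. Tac3 and Calb2, also of small p, did not follow that order. Whole lists differed in this. The mean log2 level of upper-layer genes was 10.90 in YP2, 10.76 in AP1 and 10.63 in AP3, against 10.98 to 11.11 in the other performing libraries. Deep-layer genes were lowest in AP2 (8.95) and highest in AP3 (9.23), and interneuron genes were highest in AP3 (10.04). Sst, the peptide of somatostatin interneurons, stood at 3133, 1477 and 3724 in YP1, YP2 and YP3 and at 1076, 1944 and 1064 in AP1, AP2 and AP3. The 3 bulb-rich libraries YP2, AP1 and AP3 were the lowest, and the difference of -0.98 ± 0.37 was -0.35 with the bulb score as a covariate. Vip, the peptide of another interneuron class, stood at 1280.0, 723 and 1605 in YP1, YP2 and YP3 and at 435, 1027 and 639 in AP1, AP2 and AP3, with the same 3 libraries lowest. Calb2, also a gene of bulb interneurons, stood at 236, 1567 and 437 in YP1, YP2 and YP3 and at 1767, 511 and 2409 in AP1, AP2 and AP3, the same 3 being highest. Tac3, a tachykinin precursor, stood at 320.2, 309 and 496 in YP1, YP2 and YP3 and at 182, 268 and 244 in AP1, AP2 and AP3 without overlap, and differed by -0.68 ± 0.24. Lamp5, a gene of upper layers, stood at 4864, 3389 and 6859 in the young libraries and 2578, 3787 and 2214 in the aged ones. Calb1, another, stood at 2142, 1856 and 3083 in the young libraries and 1188, 1949.8 and 1560.1 in the aged ones. Their differences were -0.80 ± 0.34 and -0.59 ± 0.22, or -0.38 and -0.35 with the covariate. Crym, a gene of deep layers, differed by -0.49 ± 0.25. The part of bulb tissue in these values was not tested beyond this covariate.

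Olfactory bulb genes were themselves unevenly split between the groups, with 21 of 23 above 0 and a median of 0.76, -0.15 with the covariate. The bulb score is built from 15 of these genes, Cdhr1 and Th among them, so their fall with the covariate was fixed in advance. Their summed level was 9927 to 24615 in the young and 12377 to 32809.8 in the aged libraries. Cdhr1, a cadherin of mitral and tufted cells, differed by 1.91 ± 0.86 on the log2 scale (SE; limma, adjusted p = 0.89) with overlap, and by 0.11 with the covariate. Th, the dopamine enzyme of periglomerular cells, stood at 39.4, 648 and 94.2 in the young libraries and 422, 138 and 883 in the aged ones, a difference of 1.46 ± 0.87. Meningeal genes followed the same libraries, with a summed level of 5063 to 40993 in the young and 13507 to 50525 in the aged libraries and 16 of 16 above 0 at a median of 0.70, or -0.48 with the covariate. Ptgds, prostaglandin D synthase of the meninges, stood at 3512, 29442 and 11192 in YP1, YP2 and YP3 and at 23673, 10386 and 37514 in AP1, AP2 and AP3. The meningeal median was -0.02 without YP1, 1.36 without YP2, 1.24 without AP2 and 0.22 without AP3. Genes of striatal projection neurons were lower in 11 of 13, with a median of -0.63 that was 0.03 without YP3, and YP3 held their highest sum, 20877, against 7664 to 8894 in the other 5 performing libraries. Red cell genes were lower in 5 of 5, with a median of -1.01, or -0.40 without YP3, and Hbb, a beta globin, stood at 1117, 897 and 3841 in the young libraries and 1222, 505 and 559 in the aged ones, YP3 highest.

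Immediate early genes, which neurons switch on within minutes of firing, were spread around 0 in performing rats. Of 41 tested, 21 had a change above 0 and the median was 0.02, with 6 not overlapping and higher and 1 lower, beside 8.63% and 7.34% of all genes. In nonperforming rats 33 of 41 had a change above 0 and the median was 0.35. The mean log2 level of the list was 8.79, 8.68 and 9.20 in YN1, YN2 and YN3. AN1, AN2 and AN3 stood at 9.54, 9.64 and 8.88, so AN3 lay within the young range. Fos stood at 474, 583 and 492 in YP1, YP2 and YP3 and at 569, 668 and 673 in AP1, AP2 and AP3, with overlap, a difference of 0.30 ± 0.46 against 1.09 ± 0.46 in nonperforming rats. Npas4, a factor that answers calcium entry alone, stood at 335, 422 and 300.4 in YP1, YP2 and YP3 and at 390.4, 459 and 327 in AP1, AP2 and AP3, a difference of 0.15 ± 0.54 against 1.34 ± 0.54. Arc, which removes AMPA receptors from synapses, stood at 6855, 6477 and 5275 in YP1, YP2 and YP3 and at 6947, 7542 and 4701 in AP1, AP2 and AP3, a difference of 0.02 ± 0.52 against 1.34 ± 0.52. Egr1 stood at 5236, 5238 and 6899.8 in the young libraries and 4433, 4831 and 5401 in the aged ones, a difference of -0.24 ± 0.36. Fosb had the smallest p of the transcription factors, at 307, 446 and 308 in YP1, YP2 and YP3 and at 473, 461 and 702 in AP1, AP2 and AP3, with AP1 and AP2 just above the highest young library, a difference of 0.62 ± 0.28. Egr4 stood at 808, 748 and 959 in the young libraries and 636, 629.8 and 608 in the aged ones, without overlap and lower in the aged.

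The interaction, the age difference in performing minus that in nonperforming rats, was smallest in p for Pim3, Gpx3, Zfp36, Adamts1 and Dusp1. Dusp1, a phosphatase of MAP kinases, stood at 1327, 1167 and 1419 in YP1, YP2 and YP3 and at 1106, 1433 and 892 in AP1, AP2 and AP3, and averaged 923 ± 384 in young and 2289 ± 1051 in aged nonperforming rats (SD, n = 3). Its interaction was -1.50 ± 0.50 (limma, adjusted p = 1.0). Zfp36, which destabilises cytokine messages, stood at 167, 188 and 161 in YP1, YP2 and YP3 and at 243, 228 and 191 in AP1, AP2 and AP3, against 138 ± 14.3 and 295 ± 39.3 in nonperforming rats, an interaction of -0.74 ± 0.24 (limma, adjusted p = 1.0). Pim3, a survival kinase, stood at 744, 795 and 784 in YP1, YP2 and YP3 and at 813, 796 and 800.3 in AP1, AP2 and AP3, within a narrow range, against 571 ± 54.9 and 985 ± 239. Its interaction was -0.71 ± 0.23 (limma, adjusted p = 1.0). Adamts1, a matrix protease, stood at 109, 144 and 204 in the young libraries and 191, 135 and 101 in the aged ones, an interaction of -1.39 ± 0.46 (limma, adjusted p = 1.0). Gpx3, a secreted glutathione peroxidase, ran the other way at 197, 299 and 510.5 in the young libraries and 692, 263 and 392 in the aged ones, an interaction of 1.67 ± 0.54 (limma, adjusted p = 1.0). None of the 5 passed, so no gene was shown to differ with age in one arm more than in the other.

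**Figure D4:**
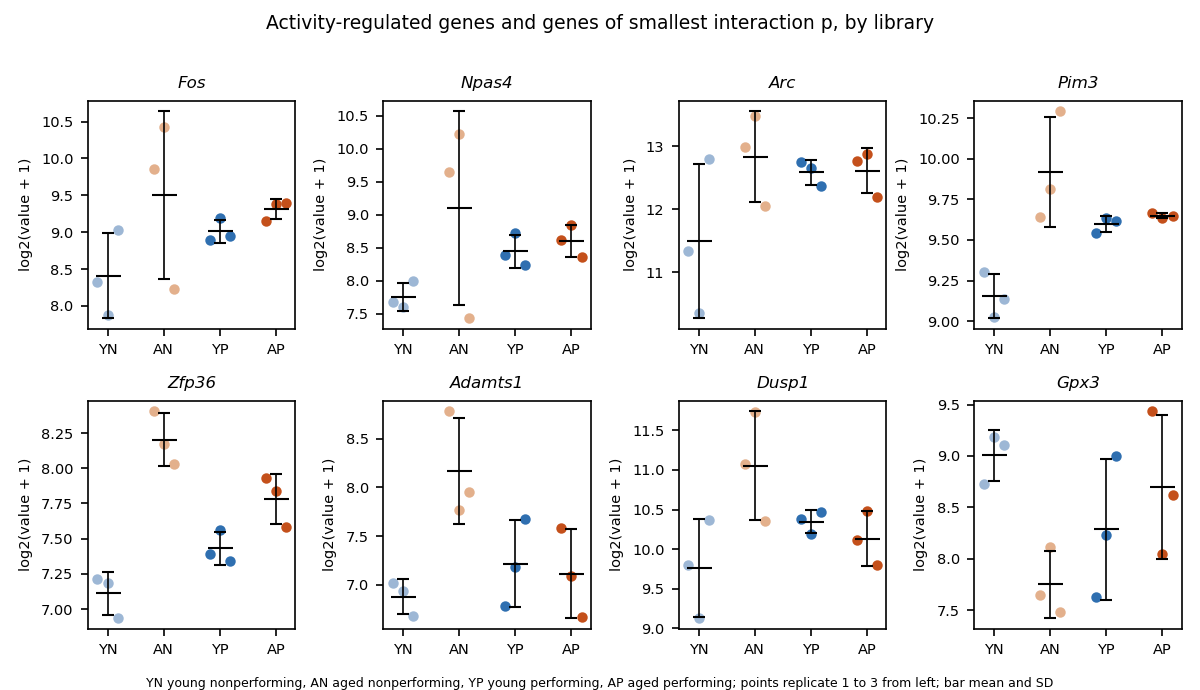
Values of 8 genes in each library as log2(value + 1), on an axis that differs between panels, with points for the 3 replicates of each group and bars for the mean and SD. Dusp1 spans 892 to 1433 before the log in the performing libraries, and Pim3 spans 744 to 813.

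Glucocorticoid-induced genes, which follow stress hormones and the clock, were above 0 in 17 of 21 with a median of 0.29, 2 of them not overlapping and higher (8.63% of all genes). The median was 0.10 with the bulb score as a covariate and 0.35 in nonperforming rats. Pdk4, which turns cells from glucose to fat, stood at 102, 153 and 89.7 in YP1, YP2 and YP3 and at 191, 176 and 194 in AP1, AP2 and AP3, the aged libraries being close together above the young ones. The difference was 0.73 ± 0.34, against 1.20 ± 0.34 in nonperforming rats. Cebpd stood at 86.7, 176 and 116 in the young libraries and 179.8, 148 and 353 in the aged ones, with overlap and the bulb-rich YP2, AP1 and AP3 highest. Myelin genes had a median of -0.12 over 22 members, and Mbp, myelin basic protein, stood at 137613, 136317 and 175013 in YP1, YP2 and YP3 and at 159364, 131612 and 118904 in AP1, AP2 and AP3, with overlap.

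Single genes were also taken over the whole table by the smallest p, among those with a mean of at least 50 in the performing libraries, 12 in each direction. Being chosen by this contrast, they describe its extremes, and none passed. Scin, an actin-severing protein, stood at 3.94, 44.9 and 5.09 in YP1, YP2 and YP3 and at 71.9, 266 and 149 in AP1, AP2 and AP3. YP2 was the highest young library but below every aged one, and the difference was 3.68 ± 0.84 on the log2 scale (SE; limma, adjusted p = 0.89), 2.82 with the bulb score as a covariate. In nonperforming rats no library exceeded 1.98 and YN2, YN3 and AN2 were at 0. Fermt3, the integrin activator kindlin-3, stood at 219, 229 and 194 in YP1, YP2 and YP3 and at 324, 648 and 324 in AP1, AP2 and AP3, with AP1 and AP3 well above the young range, a difference of 0.93 ± 0.26, 0.60 without AP2. Cnr2, the cannabinoid receptor of immune cells, stood at 38.4, 42.6 and 36.3 in the young libraries and 53.9, 184 and 80 in the aged ones, and Clec12a, an inhibitory lectin of myeloid cells, at 16.8, 9.46 and 8.27 in the young libraries and 21.8, 209 and 45.4 in the aged ones. Mr1, an MHC-like molecule that presents vitamin B metabolites, stood at 35.5, 39 and 33.1 in YP1, YP2 and YP3 and at 78.3, 59.3 and 111 in AP1, AP2 and AP3. AP3 was the highest, and the difference was 1.14 ± 0.33, 1.36 without AP2 and 0.92 with the covariate. Sall1 is given above with the microglial genes. Rab27a, which docks secretory vesicles, stood at 191, 222 and 282 in YP1, YP2 and YP3 and at 297, 379.5 and 410.0 in AP1, AP2 and AP3, a difference of 0.65 ± 0.19 against 0.02 ± 0.19 in nonperforming rats. Ptpn18, a tyrosine phosphatase, stood at 58.1, 67.4 and 55.4 in the young libraries and 93.7, 148 and 89.9 in the aged ones, Parp10, a mono-ADP-ribosyltransferase, at 131, 188 and 102 in the young libraries and 217, 302 and 268 in the aged ones, and Pde1c, a calmodulin-dependent phosphodiesterase, at 68, 122 and 60.5 in the young libraries and 240.1, 127 and 274 in the aged ones. Cttnbp2nl, an actin regulator, differed by 0.46 ± 0.13, and RGD1309108, whose role is not stated here, by 1.07 ± 0.30.

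The 12 lower genes were chosen in the same way. Hpca, the calcium sensor hippocalcin, stood at 14913, 11112 and 17764 in YP1, YP2 and YP3 and at 9653, 11027 and 7608 in AP1, AP2 and AP3. AP2 was only just below YP2, and the difference was -0.62 ± 0.20 on the log2 scale (SE; limma, adjusted p = 0.89), -0.34 with the bulb score as a covariate. Syndig1, which promotes excitatory synapses, stood at 1204, 833 and 1212 in YP1, YP2 and YP3 and at 616, 869 and 524 in AP1, AP2 and AP3, with AP2 above YP2. Cdh9, a cadherin of synapses, stood at 298, 267 and 386 in the young libraries and 154, 254 and 169 in the aged ones, and Dclk3, a kinase related to doublecortin, at 785, 616 and 1229.7 in the young libraries and 348, 528 and 467 in the aged ones. Plxnd1, a semaphorin receptor, stood at 1456, 1387 and 1361 in YP1, YP2 and YP3 and at 990.0, 1089 and 1113 in AP1, AP2 and AP3. Both groups were tight and well apart, and the difference was -0.40 ± 0.13, -0.40 with the covariate. Eral1, an assembly factor of the mitochondrial ribosome, stood at 1024, 875 and 838 in the young libraries and 597, 715 and 720.3 in the aged ones, without overlap. Tmem114, a membrane protein, stood at 88.7, 112 and 169 in YP1, YP2 and YP3 and at 34.7, 39.1 and 81 in AP1, AP2 and AP3, a difference of -1.29 ± 0.34, against -0.82 ± 0.34 in nonperforming rats. Spata2L differed by -0.55 ± 0.15, Fam131c by -0.65 ± 0.19, Fkbpl by -0.79 ± 0.24, Slc35f2 by -0.92 ± 0.30 and Prss22 by -0.94 ± 0.31.

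**Figure D5:**
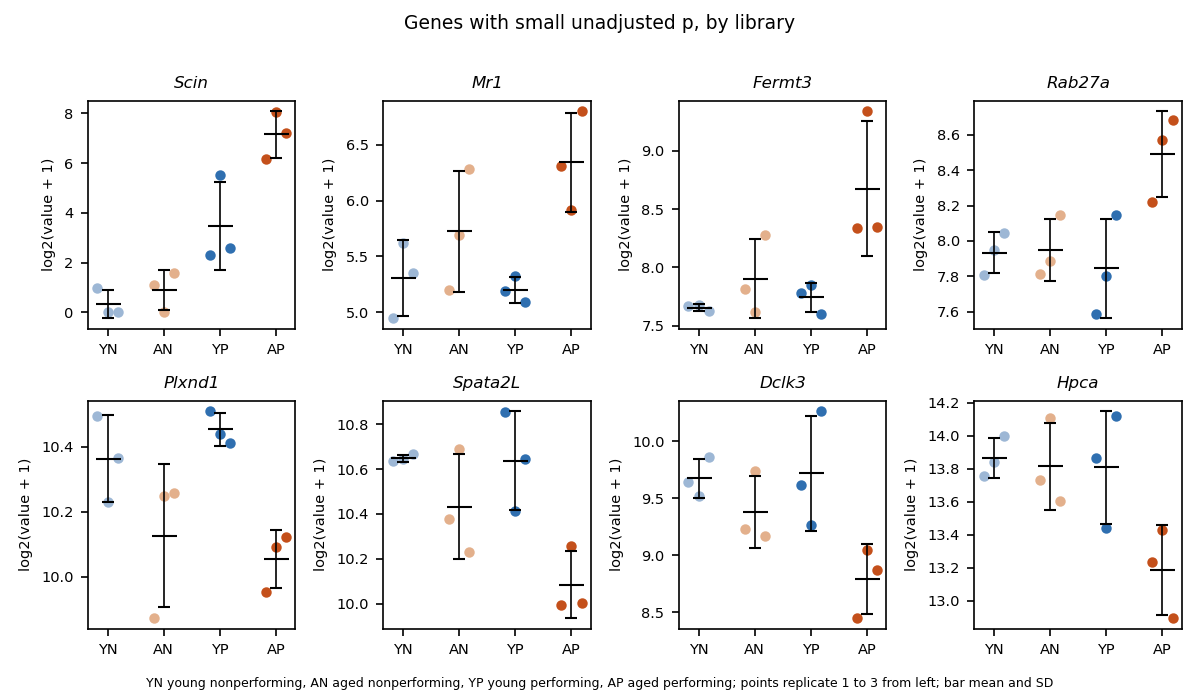
Values of 4 higher and 4 lower genes in each library as log2(value + 1), on an axis that differs between panels, with points for the 3 replicates of each group and bars for the mean and SD. In each panel the 3 aged performing points lie on 1 side of the 3 young performing points, as for Plxnd1 at 990.0 to 1113 against 1361 to 1456.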

How the data were processed

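RNA-seq of medial prefrontal cortex gave 1 table of 12 libraries. Per the submitters' processing notes, the authors used Trimmomatic, Bowtie2, TopHat2, HTSeq and DESeq2 with the build Rnor_6.0; versions and settings are not given in the sources used here. The deposited signal values are normalized counts, each the reads of a gene divided by a size factor. Whole reads were recovered for 100% of values within 0.01. Groups came from the labels. limma (3.58.1, R 4.3.3) was fitted with variance trend to log2(value + 1) over 12 libraries, as 4 group means, for 13496 genes, with Benjamini-Hochberg adjustment at 0.05. edgeR (4.0.16) and DESeq2 (1.42.0) were run on the recovered reads. Other alternatives were pseudocount, filter, scaling, library weights, covariates and left-out libraries. The bulb score is the mean log2 value of 15 genes of the olfactory bulb list. Scripts were tested on simulated data. The members and 33 gene lists were chosen with earlier results of these data known. Genes named were the 12 higher and 12 lower of smallest p with a mean of at least 50 in the performing libraries, 5 by interaction, up to 4 per list role by smallest p plus a member at the opposite extreme, and 16 set by name; some genes under this rule are not reported here.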

Additional observations from a re-analysis of the deposited data

How the results depend on the processing

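No gene passed an adjusted p of 0.05 in either comparison under any alternative run, and none passed 0.1 in the performing comparison apart from the fit with library quality weights, chosen with that limit after seeing the data, which gave 2161. The 466 genes at an unadjusted p under 0.05 became 3897 with library quality weights, 167 with the bulb score as a covariate and 983 with only the performing libraries. Leaving out 1 library gave 181 to 1446: 1446 without YN3, 1121 without YP2, 720 without AP2, 255 without AP3, 183 without YP1 and 181 without YP3. The split was 338 higher and 44 lower without YP2, AP1 and AP3, and 139 and 28 with the bulb score. The cause was not tested. No paired analysis was possible because the labels give no replicate numbers shared between groups. Of 1924 list medians under alternatives, 1840 moved by less than the spread between libraries and 84 by more. That spread is the SD of the mean level of a list within the performing groups, so an outlying library widens it. The meningeal median, 0.70 and -0.02 without YP1, counts among the 1840. The count therefore says little about lists whose libraries differ widely. Of 3851 changes of named genes, 45 turned sign, and none of the 125 interaction values did. With library quality weights the log2 change was -0.050 for Arc, 0.089 for Chrm1, -0.17 for Chrna7, -0.31 for Chrnb2, 0.060 for Mbp, 0.38 for Adamts1, 0.30 for Cfb and -0.20 for C3ar1. With the bulb score it was 0.020 for Bdnf, -0.38 for Th (itself in the score), 0.0040 for Dusp1, -0.33 for Mrc1, -0.072 for Calb2 and -0.32 for Ptgds. With quantile normalization it was -0.041 for Chrna7, -0.0052 for Mrc1 and -0.012 for Mfsd2a, and with the title prefix as a covariate -0.057 for Mfsd2a. RT1-DOb stood at 0.54 with DESeq2 and 0.53 with edgeR. Without YP2, AP1 and AP3 it was -0.27 for Gpx3, 0.062 for Dusp1, 2.17 for RT1-DOb, 0.078 for Cd55, 3.78 for Ifit1 and -0.084 for Mfsd2a. Leaving out 1 library at a time gave ranges that crossed 0 for 12 genes. They ran from -0.0042 (without AP2) to 0.85 for Aif1, -0.11 to 0.23 for Arc, -0.13 to 0.20 for Chrna7, -0.097 to 0.23 for Chrnb2 and -0.34 to 0.13 for Adamts1. They ran from -0.039 (without YP3) to 0.63 for Mrc1, -0.76 to 0.17 (without YP3) for Cfb, -0.10 to 0.52 for C3ar1 and -3.97 to 0.061 (without YP3) for Ifit1. For ATP6 they ran from -0.025 (without AP1) to 0.25, for Mfsd2a from -0.10 to 0.13 and for Ifnar1 from -0.17 to 0.0062. Genes with few reads, such as Clec7a, Chat and RT1-Db2, are limited by counting error as well as by 3 libraries a group.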
